A study of Mus musculus with 38 samples.

Results

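Livers of calorie-restricted mice were compared with livers of mice fed ad libitum, that is with food freely at hand, in the libraries labelled 14 h, across all genes of the expected-count table. The comparison rests on 6 of the 38 liver libraries of the series, 3 for each diet, and on 13786 of 21954 genes, those with enough reads to test. All animals were female wild-type C57BL/6 mice, and both groups carry the same genotype. The labels give ages of 20, 21 and 22 months to the ad libitum (AL) libraries and of 23, 24 and 25 months to the calorie-restricted (CR) ones. These ages rise from each sample to the next through the whole series, and if they are real, age and diet cannot be told apart. The labels state neither the degree of restriction, nor the event from which the hours were counted, nor whether the libraries of a group came from separate animals. The other groups used here are AL and CR at 0, 6 and 22 h and a fasted group (F) at 14 h, all of the same strain, sex and genotype. Their labelled ages follow the same rising order, with 5 to 9 months at 0 h and 11 to 16 at 6 h. The fasted group is labelled 26 to 28 months and the groups of 22 h 29 to 35. If real, age cannot be told apart from time or from the difference between CR and fasted livers either.

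Calorie restriction is a lasting cut in food intake, and mice kept on it usually eat their ration soon after it is given and then go without food until the next one. Between meals the liver moves from using glucose and making fat to burning fatty acids and making glucose, and insulin, glucagon and glucocorticoids set this balance together with the circadian clock. In that clock BMAL1 (gene Arntl) and CLOCK or NPAS2 switch on the Per, Cry and Nr1d genes, whose proteins then repress the clock's activators.

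Total expected counts ran from 20214989 to 26927006 over the 6 libraries, and from 17131271 to 30152301 over all 38. The 6 libraries did not fall cleanly into the diets. Levels are given in CPM, that is counts scaled to an equal library size. Over the 9060 genes that averaged 5 CPM or more, the Spearman correlation of CR library 3 with the AL libraries averaged 0.949, against 0.911 with the other CR libraries, and its nearest library of the series was AL library 1. AL library 2 correlated at a mean of 0.945 with the CR libraries and 0.933 with the other AL libraries, and its nearest library was AL library 2 of 0 h. CR libraries 1 and 2 were each other's nearest, at 0.966. Deviations of CR library 3 from its group mean correlated across genes at 0.771 with those of CR library 3 of 6 h and at 0.533 with those of CR library 3 of 22 h. The Spearman correlation of gene length with a library's deviation from the mean of all libraries was -0.258 in CR library 3. It was -0.23, -0.016 and -0.396 in AL libraries 1 to 3, and 0.095 and -0.155 in CR libraries 1 and 2. What sets CR library 3 and AL library 2 apart, the part of this length trend included, was not tested. The results below are therefore given with all 6 libraries and without CR library 3.

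With all 6 libraries, 3 genes differed between the diets at an adjusted p under 0.05 by edgeR's quasi-likelihood test with Benjamini-Hochberg adjustment, which is 0.0218% of the genes tested. Of these, 1 gene (0.00725%), Dlat, was higher under CR, and 2 genes (0.0145%), the major urinary protein genes Mup15 and Mup17, were lower. At an unadjusted p under 0.05 there were 1330 genes, and DESeq2 called 68. The 3 CR libraries lay all above or all below the 3 AL libraries for 1334 genes, 9.68% of those tested, with 672 higher and 662 lower under CR. Without CR library 3 the same test called 144 genes (1.05%), 73 higher (0.53%) and 71 lower (0.516%), all 3 of the genes above among them. Without AL library 2 it called 37 genes (0.268%), and without both of these libraries 881 (6.4%). Leaving out a library because it resembles the other diet widens the difference by construction, so these larger counts describe the remaining libraries and do not stand as independent support. Of the 144 genes, CR library 3 lay within the range of the AL libraries for 80 and on the CR side of their mean for 110. Leaving out AL library 1 or 3, or CR library 1 or 2, left 0 genes called, with 642 to 999 genes at an unadjusted p under 0.05 in these 4 fits.

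**Figure D1:**
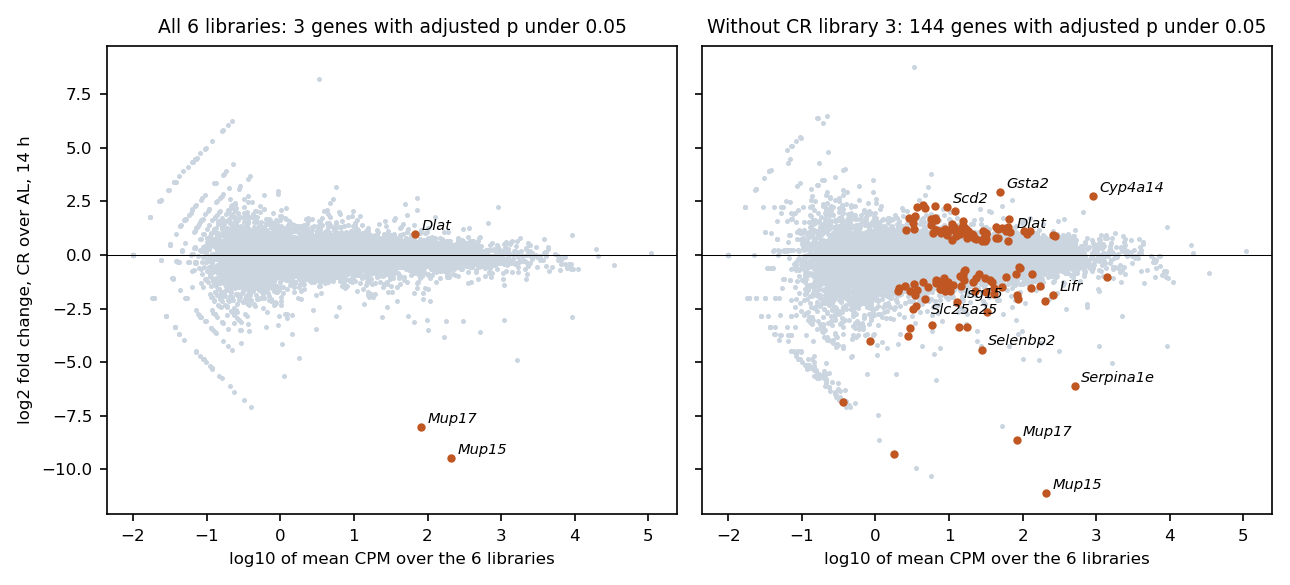
Each point is 1 gene, with the log10 of its mean CPM over the 6 libraries on the horizontal axis and the log2 fold change of CR over AL at 14 h on the vertical axis; orange points have an adjusted p under 0.05 (edgeR). With all 6 libraries (left) 3 points are orange, and without CR library 3 (right) 144 are, on both sides of 0.

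Mup15 and Mup17 encode major urinary proteins, pheromone-binding carriers that the liver secretes and that are made in larger amounts in males. Mup15 stood at 163, 977 and 111 CPM in AL libraries 1 to 3 and at 0.382, 0 and 1.33 CPM in the CR libraries. Mup17 stood at 36.7, 389 and 68.5 CPM under AL and at 0.552, 0.277 and 1.06 CPM under CR. Every CR library, library 3 included, was far below every AL library for both genes, and AL library 2 was the highest. Mup15 fell by 9.48 ± 1.80 (SE) on the log2 scale and Mup17 fell by 8.01 ± 1.49, both with an adjusted p of 0.0472. Without CR library 3 the differences were -11.09 (adjusted p = 0.0219) and -8.63 (adjusted p = 0.0234).

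Both genes were also low under CR at 6 h, where Mup15 averaged 388 ± 203 CPM (SD, n = 2) in AL and 0.221 ± 0.25 (n = 3) in CR. At 0 and 22 h the log2 differences were -3.72 and -4.0 for Mup15 and -3.46 and -2.42 for Mup17. None at these 3 times was called (edgeR, adjusted p from 0.0522 to 0.375). The diet difference at 14 h was not shown to differ from that at 0, 6 or 22 h (adjusted p of 0.202 or more). In the fasted livers of 14 h Mup15 averaged 3273 ± 1252 CPM and Mup17 2081 ± 600.0 CPM (SD, n = 3). Mup15 and Mup17 thus had their lowest levels at 14 h in CR, intermediate levels in AL and their highest levels in the fasted group, and no 2 of these groups overlapped. All 20 of the Mup genes tested, a family counted after its values were seen, had a negative difference (median -3.05). For 16 of the 20 the CR libraries lay below all AL libraries, against 4.8% of all genes, and Mup15 and Mup17 were the 2 called. Mup3 was among the 4 that overlapped, at 2993, 2731 and 2995 CPM under AL and 289, 506 and 3964 CPM under CR, with CR library 3 above all AL libraries. The Mup genes are near-identical copies, so how reads were divided among them is uncertain. The libraries were not strand-specific either, so for any gene here reads of an overlapping or antisense gene cannot be told apart.

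The stretches before the starts of these genes are shown because Mup15 and Mup17 were the 2 genes that fell. Sequences are from RefSeq on GRCm38.p6, read 5′ to 3′ on the minus strand, at chr4:61439744-61439954 for Mup15 and chr4:61595872-61596082 for Mup17, and they leave out bases that GENCODE vM21 places in an exon. Capitals mark a match on either strand to TTATGNAA, a loose pattern searched for the D-box, which DBP and TEF bind. N stands for any base, and the match in both genes is TTATGAAA, which is not named a D-box here.
Mup15: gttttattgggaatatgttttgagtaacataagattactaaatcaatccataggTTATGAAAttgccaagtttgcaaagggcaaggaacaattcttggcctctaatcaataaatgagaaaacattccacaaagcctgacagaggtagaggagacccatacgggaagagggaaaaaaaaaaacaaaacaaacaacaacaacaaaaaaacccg
Mup17: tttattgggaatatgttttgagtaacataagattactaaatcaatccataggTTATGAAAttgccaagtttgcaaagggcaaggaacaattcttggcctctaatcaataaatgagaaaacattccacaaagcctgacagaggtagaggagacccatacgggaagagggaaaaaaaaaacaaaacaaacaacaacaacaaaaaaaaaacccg
In a global alignment, 208 of 214 columns were identical (97.2%). The match begins 196 bases before the Mup15 start and 198 before the Mup17 start. Among all 32851 RefSeq promoters searched over 250 bases, 3.07% hold such a match, which describes the letters and shows no binding.

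Dlat, on chromosome 9 at 50634633 to 50659780, encodes the E2 subunit of the pyruvate dehydrogenase complex, which turns pyruvate into acetyl-CoA. It measured 39.9, 50.9 and 46.4 CPM in AL libraries 1 to 3 and 98.6, 94.7 and 73.6 CPM in CR libraries 1 to 3. The groups did not overlap, and CR library 3 was the lowest of the CR libraries yet above every AL library. Dlat rose by 0.96 ± 0.18 (SE) on the log2 scale (adjusted p = 0.0472), and by 1.08 ± 0.19 without CR library 3 (adjusted p = 0.0108). Its CR level of 89.0 ± 13.4 CPM (SD, n = 3) at 14 h compared with 55.1 ± 8.47 (n = 2) at 0 h, 62.0 ± 1.99 (n = 3) at 6 h and 63.6 ± 15.4 (n = 4) at 22 h, while AL ranged only from 45.4 to 55.8 CPM in its 4 group means. The diet difference at 14 h was not shown to differ from that at 0, 6 or 22 h (adjusted p = 0.179, 1 and 0.597).

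The other subunits of the complex, looked up after Dlat was seen, did not pass the test. Pdha1, of the E1 subunit, measured 98.0, 110 and 87.2 CPM under AL and 161, 150 and 95.4 CPM under CR, and the groups overlapped (log2 difference 0.46, adjusted p = 0.515). Pdhb differed by -0.05, Pdhx by 0.04 and Dld by 0.20. Pdk4, the kinase that switches the complex off, stood at 5.14, 4.98 and 7.03 CPM under AL and at 22.7, 10.4 and 12.3 CPM under CR, without overlap but with an adjusted p of 0.609.

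**Figure D2:**
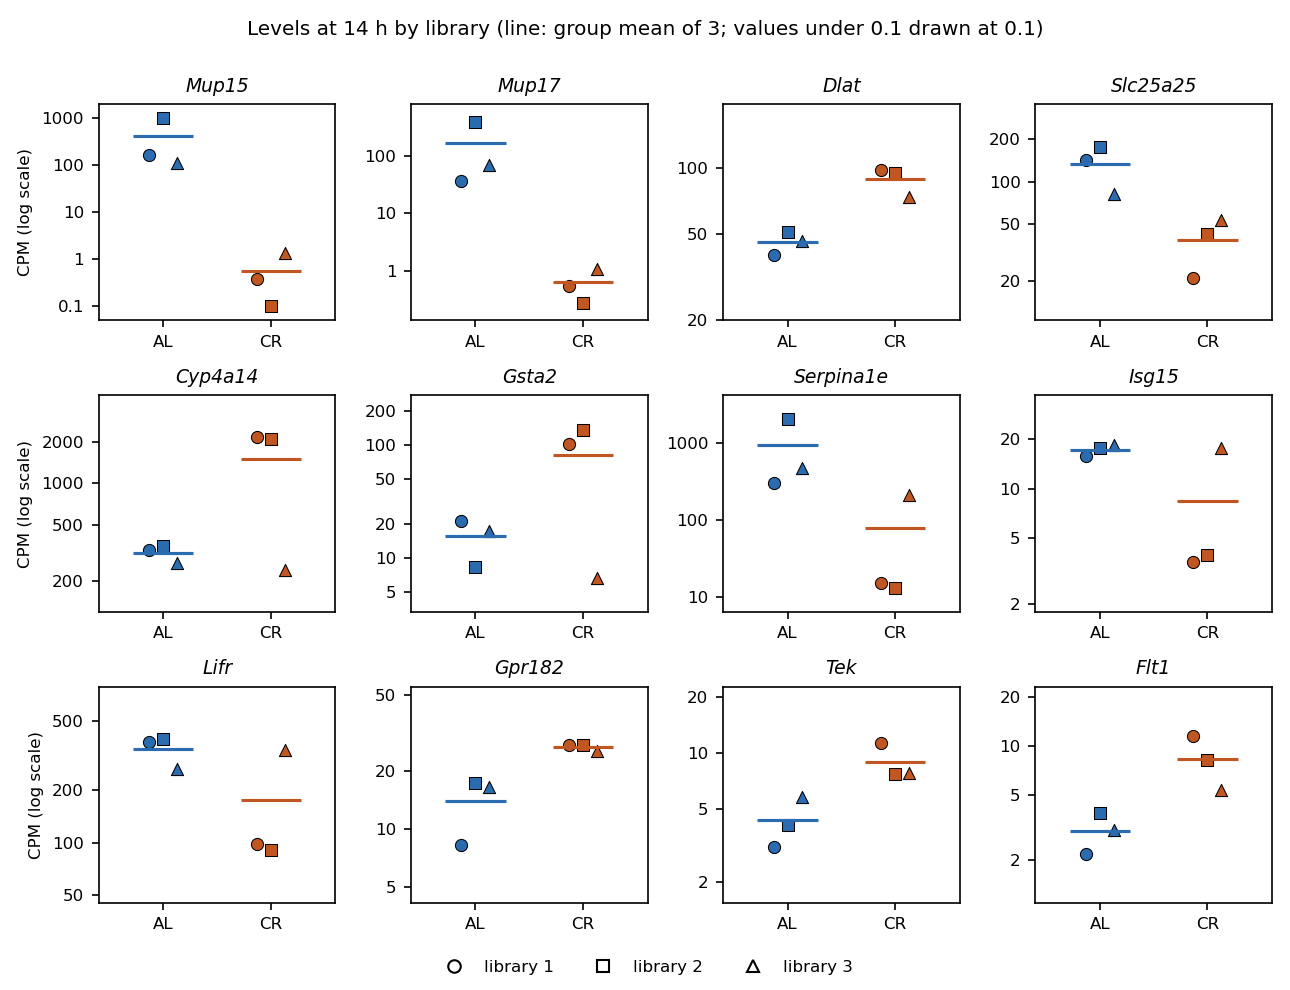
CPM of 12 genes in the 3 AL and 3 CR libraries of 14 h, on log axes, with 1 symbol per library number and a line at each group mean. Mup15, Mup17, Dlat, Slc25a25, Gpr182, Tek and Flt1 keep CR library 3 with the CR libraries, whereas it lies within or past the AL libraries for Cyp4a14, Gsta2, Isg15 and Lifr.

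Of the 144 genes that passed the test without CR library 3, the 12 largest differences in each direction are named here. They were taken among genes with at least 5 CPM in 1 group and no overlap of the 5 remaining libraries, leaving out Mup genes and unnamed models. On the higher side, Cyp4a14, a fatty acid omega-hydroxylase and a target of the fasting-activated receptor PPARA, measured 334, 353 and 270 CPM under AL and 2142, 2095 and 240 CPM under CR. Its difference was 2.73 ± 0.69 without CR library 3 (adjusted p = 0.0453) and 2.23 ± 0.72 with it (adjusted p = 0.298). Gsta2, a glutathione transferase with close paralogs, measured 21.4, 8.39 and 17.5 CPM against 102, 137 and 6.73 CPM. In both genes CR libraries 1 and 2 stood apart from everything else, and CR library 3 was below all AL libraries. Scd2, a stearoyl-CoA desaturase, measured 2.52, 6.07 and 3.93 CPM against 27.0, 12.2 and 4.56 CPM. The others of these 12 were Epb41l1, Mpzl1, Il22ra1, Tmem267, Adamts7, Fam171a1, Cdkn1c, Mcam and Irf2bp2, with log2 differences from 1.69 to 2.33 without CR library 3. Gbe1, the glycogen branching enzyme, is named as a member of the glycogen list that passed the same test, and it measured 67.8, 89.4 and 73.7 CPM against 162, 170 and 61.0 CPM.

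On the lower side, Serpina1e, an alpha-1-antitrypsin gene with near-identical copies, measured 298, 2076 and 480 CPM under AL and 14.9, 12.8 and 210 CPM under CR. Its difference was -6.10 ± 1.44 without CR library 3 (adjusted p = 0.0344) and -3.59 ± 1.17 with it (adjusted p = 0.3). Here CR library 3 kept below the AL libraries but far above the other CR libraries, and Selenbp2, a selenium-binding protein, had the same layout with 31.6, 75.7 and 35.3 CPM against 2.42, 2.06 and 22.2 CPM. Lifr, the receptor of leukemia inhibitory factor, measured 378, 395 and 266 CPM against 98.0, 90.3 and 343 CPM, and Nudt7, a peroxisomal coenzyme A hydrolase, 203, 191 and 347 CPM against 45.3, 65.8 and 346 CPM. CR library 3 lay inside the AL range for both genes. The 12 on the lower side also included Sult5a1, Hist2h3c1, Rarres1, Zfp948 and Msantd2, with differences from -3.36 to -2.05 without CR library 3. Slc25a25, Isg15 and Tgtp1, described further on, complete these 12.

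Markers of the liver's sinusoidal endothelium, the lining of its capillaries, had higher summed values in each CR library than in each AL library. All 14 of the 14 markers tested had a positive difference, with a median of 0.79 on the log2 scale against -0.01 for all genes tested, but 0 of them passed the test with all 6 libraries. In 4 of the 14, Kdr, Gpr182, Tek and Flt4, the CR libraries lay above all AL libraries, against the 4.87% of all genes that did. Kdr, a receptor of vascular endothelial growth factor, measured 7.87, 20.2 and 27.4 CPM under AL and 50.0, 39.6 and 29.5 CPM under CR. Gpr182, a receptor of these endothelial cells, measured 8.30, 17.3 and 16.6 CPM against 27.3, 27.5 and 25.4 CPM, and its difference of 0.92 ± 0.20 had an adjusted p of 0.0875. Without CR library 3 the median was 0.92 and 3 of the 14 passed the test on the higher side, where 0.53% of all genes did. They were Gpr182 (adjusted p = 0.0344), Tek (0.0464) and Dnase1l3 (0.0251). AL library 1 had the lowest value of all 6 libraries for Kdr, Gpr182 and Tek, and CR library 3 the lowest CR value for Kdr and Gpr182.

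The summed level of the 14 endothelial markers ran from 150 to 300 CPM in the AL libraries and from 331 to 488 CPM in the CR libraries, without overlap. In this bulk tissue, more cells of a type and more RNA per cell cannot be told apart. The vascular genes Flt1, Ehd3 and Hspg2, outside the list and chosen after their values were seen, lay the same way, and all 3 passed the test without CR library 3 (adjusted p = 0.0123, 0.0153 and 0.0331). Flt1, another receptor of vascular endothelial growth factor, measured 2.20, 3.89 and 3.05 CPM against 11.5, 8.19 and 5.36 CPM (adjusted p = 0.0658). Ehd3, a membrane-trafficking protein, measured 22.4, 45.9 and 33.6 CPM against 78.0, 84.0 and 52.6 CPM (adjusted p = 0.0741), and Hspg2, the basement-membrane protein perlecan, 8.84, 9.76 and 10.1 CPM against 23.6, 13.8 and 18.8 CPM (adjusted p = 0.0658). Summed markers of stellate cells (341 to 551 against 499 to 606 CPM) and of Kupffer cells (376 to 557 against 384 to 465 CPM) overlapped between the diets, as did hepatocyte markers (166425 to 169346 against 146322 to 190666 CPM). Erythroid markers varied from library to library, from 315 to 5888 CPM under AL and from 1237 to 1978 CPM under CR, and summed markers of pancreas, skeletal muscle and fat stayed at or under 17.1 CPM in all 6 libraries.

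Interferon-responsive genes, which cells switch on against viruses, had lower values in CR libraries 1 and 2 than under AL, and values nearer to AL in CR library 3. Of 19 tested, 18 had a negative difference, with a median of -0.77 on the log2 scale, and 0 passed the test with all 6 libraries. In 5 of the 19, Ifit1, Ifi44, Usp18 and Psmb8 among them, the CR libraries lay below all AL libraries, against 4.8% of all genes. Ifit1, which binds foreign RNA, measured 24.6, 16.9 and 17.7 CPM under AL and 2.25, 4.00 and 13.6 CPM under CR. Isg15, a ubiquitin-like protein, measured 15.8, 17.5 and 18.3 CPM against 3.61, 3.96 and 17.7 CPM, so that CR library 3 fell inside the AL range. Without CR library 3 the median was -1.19, and Isg15 was the 1 member that passed (-2.18 ± 0.55, adjusted p = 0.0424), where 0.516% of all genes passed on the lower side.

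Outside the list, the interferon-inducible GTPase genes Igtp and Tgtp1 passed the test without CR library 3, as did Irf9, an interferon regulatory factor, and these 3 were chosen after their values were seen. Igtp measured 70.9, 64.7 and 85.0 CPM against 22.0, 30.9 and 39.6 CPM, with no overlap, and its difference was -1.25 ± 0.28 with all libraries (adjusted p = 0.0875) and -1.48 ± 0.32 without CR library 3 (adjusted p = 0.0219). Tgtp1, which has a near-identical neighbour, measured 16.1, 14.6 and 53.8 CPM against 1.87, 3.60 and 16.9 CPM. Irf9 measured 50.2, 39.1 and 47.9 CPM against 19.6, 21.2 and 38.9 CPM.

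Promoters of 4 of these genes are shown because each holds the letters of the interferon-stimulated response element, GAAA, any 2 bases and GAAA again, searched on both strands and marked in capitals. They are RefSeq sequences on GRCm38.p6, 5′ to 3′, outside GENCODE exons, at chr4:156200819-156201068 (minus strand, Isg15), chr11:58199306-58199555 (plus strand, Igtp), chr11:48992259-48992496 (minus strand, Tgtp1) and chr19:34640744-34640870 (plus strand, Ifit1).
Isg15: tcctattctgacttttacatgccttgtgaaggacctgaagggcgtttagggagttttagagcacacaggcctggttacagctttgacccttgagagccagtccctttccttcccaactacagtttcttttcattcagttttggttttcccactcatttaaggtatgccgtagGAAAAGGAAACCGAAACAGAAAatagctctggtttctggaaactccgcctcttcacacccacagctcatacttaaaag
Igtp: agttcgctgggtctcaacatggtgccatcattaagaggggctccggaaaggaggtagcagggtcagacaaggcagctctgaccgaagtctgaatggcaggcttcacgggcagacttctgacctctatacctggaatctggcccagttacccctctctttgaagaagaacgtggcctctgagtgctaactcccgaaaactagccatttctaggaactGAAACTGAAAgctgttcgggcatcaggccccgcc
Tgtp1: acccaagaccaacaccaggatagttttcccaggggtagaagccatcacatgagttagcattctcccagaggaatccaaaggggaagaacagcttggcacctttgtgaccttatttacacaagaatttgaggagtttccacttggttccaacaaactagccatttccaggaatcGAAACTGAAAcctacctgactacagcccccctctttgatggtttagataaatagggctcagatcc
Ifit1: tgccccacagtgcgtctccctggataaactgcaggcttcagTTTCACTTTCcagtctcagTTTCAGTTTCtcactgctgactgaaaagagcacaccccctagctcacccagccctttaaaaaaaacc
Isg15 has 3 overlapping matches, from 78 to 66 bases before the start, Ifit1 has 2, at 104 and 85 bases, and Igtp and Tgtp1 have 1 each, at 34 and 77 bases. Of the 20 genes in the list, 14 were matched in the RefSeq table and 7 of these hold the motif within 250 bases, against 2.98% of all promoters. The list was drawn from known interferon targets, so this share says nothing about these livers.

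Genes that present antigens lay the same way. All 17 tested had a negative difference (median -0.55), 0 passed the test with all 6 libraries or without CR library 3, and for 7 the CR libraries lay below all AL libraries, against 4.8% of all genes. B2m, the light chain of class I molecules, measured 2470, 1751 and 1864 CPM under AL and 1183, 1544 and 1429 CPM under CR. H2-Aa, of class II, measured 34.4, 25.6 and 42.7 CPM against 14.7, 18.8 and 21.9 CPM. Summed lymphocyte markers, 13 of 15 tested with none at 0 in all 6 libraries, ran from 10.8 to 22.8 CPM under AL and stood at 5.52, 6.17 and 19.3 CPM in CR libraries 1, 2 and 3. Like the interferon genes, this sum was nearer to AL in CR library 3, whereas B2m and H2-Aa were below all AL libraries there too. The part of lymphocytes in these values was not tested.

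Genes of cell division had lower values under CR. Of 20 tested, 19 had a negative difference (median -0.74; -1.10 without CR library 3), 0 passed the test, and 6 were lower without overlap, against 4.8% of all genes. Ccnd1, cyclin D1 of the G1 phase, measured 105, 147 and 73.5 CPM under AL and 19.6, 55.3 and 38.2 CPM under CR (log2 difference -1.52 ± 0.41, adjusted p = 0.187). Ccna2, cyclin A2, measured 1.45, 1.37 and 1.47 CPM against 0.297, 0.396 and 0.684 CPM, and Mki67, a marker of cycling cells, 1.45, 1.99 and 3.33 CPM against 0.764, 0.870 and 1.22 CPM. Each of these had its CR libraries below all AL libraries.

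Cytosolic heat shock chaperones and cold-inducible RNA-binding proteins, listed together, had a median difference of -0.53 over 22 genes, the same without CR library 3. Of the 22, 0 were called and 6 were lower without overlap, against 4.8% of all genes. Hsp90aa1, a stress-inducible HSP90, measured 351, 111 and 85.8 CPM under AL and 69.9, 84.7 and 77.9 CPM under CR, so AL library 1 carried most of its difference of -1.24. Chordc1, an HSP90 partner, had the same layout at 79.3, 24.6 and 27.1 CPM against 20.3, 21.9 and 23.4 CPM. Cirbp, which is induced by cold, was the 1 member with higher values without overlap, at 10.4, 13.9 and 27.5 CPM against 36.1, 36.3 and 30.0 CPM. Chaperones of the endoplasmic reticulum had a median of -0.17 over 24 genes of the unfolded protein response, and Hspa5 (BiP) measured 1036, 525 and 563 CPM against 575, 515 and 450 CPM.

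**Figure D3:**
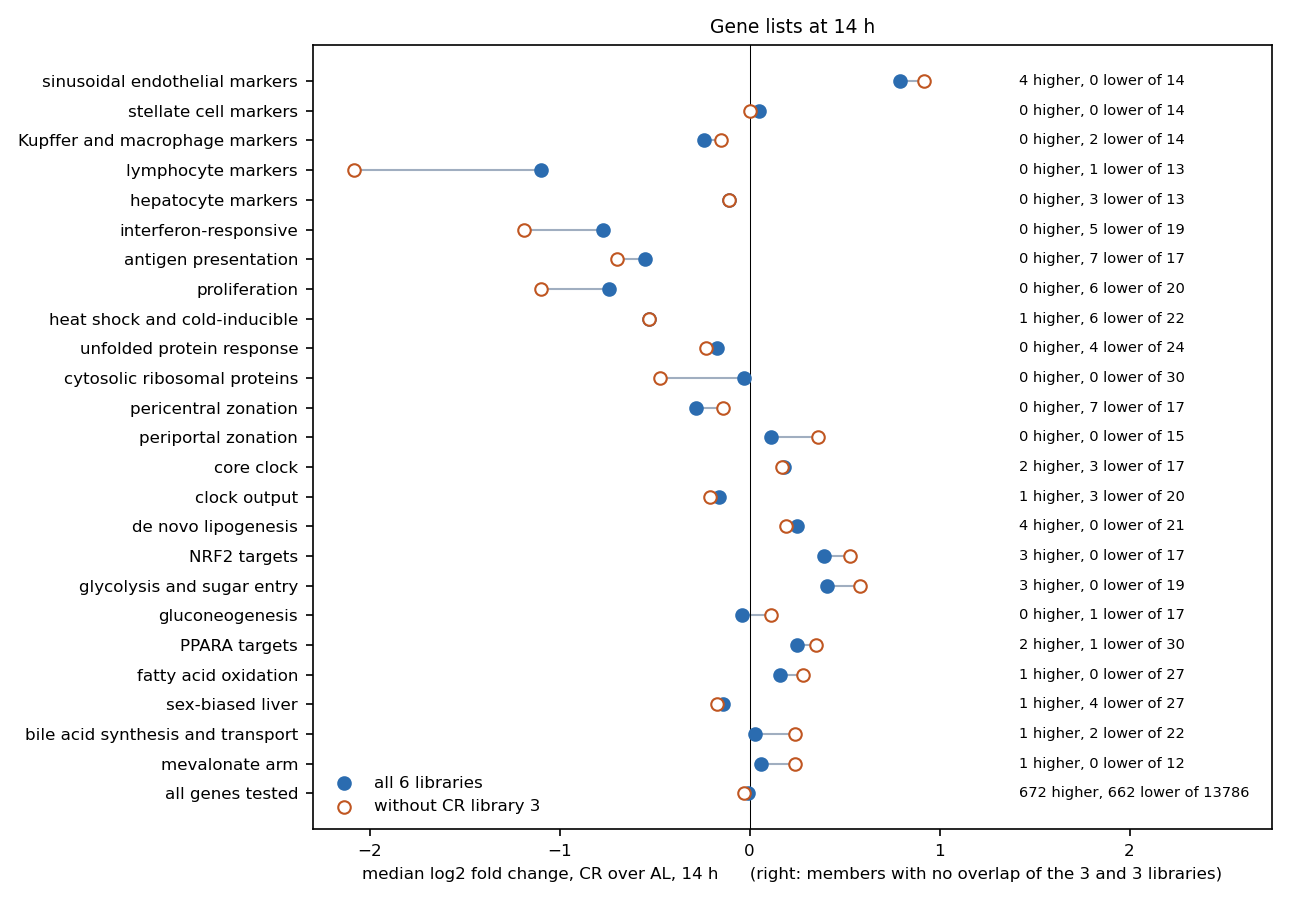
Median log2 fold change of CR over AL at 14 h for 24 gene lists and all genes tested, with all 6 libraries (filled) and without CR library 3 (open); numbers at the right count members whose 3 CR and 3 AL libraries do not overlap. Of the 24 drawn, chosen from 62 lists, endothelial markers lie furthest to the right at 0.79. Lymphocyte markers lie furthest to the left of these at -1.10, which becomes -2.08 without CR library 3. Among lists not drawn, skeletal muscle markers had -3.19 and neutrophil markers 0.78, with sums of at most 7.63 and 14.5 CPM in any of the 6 libraries.

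The circadian clock genes had 0 of 17 members called with all 6 libraries or without CR library 3, and 5 whose libraries did not overlap between the diets, against 9.68% of all genes in either direction. Arntl, which encodes the activator BMAL1, measured 6.53, 2.37 and 2.51 CPM under AL and 27.6, 9.57 and 9.28 CPM under CR (log2 difference 2.03 ± 0.70, adjusted p = 0.316). Per2 and Per3, which encode repressors, were on the other side. Per2 measured 41.2, 15.5 and 15.3 CPM against 3.65, 7.64 and 10.5 CPM (-1.72 ± 0.60, adjusted p = 0.320), and Per3 22.2, 23.6 and 20.6 CPM against 7.04, 11.3 and 9.39 CPM (-1.26 ± 0.51, adjusted p = 0.407). Bhlhe41, another repressor, lay lower without overlap at up to 3.65 CPM, and the kinase gene Csnk1e higher by 0.31.

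The remaining clock genes overlapped between the diets. Npas2 and Clock, partners of BMAL1, differed by 1.70 ± 1.13 and 0.39 ± 0.33, Cry1 by 1.01 ± 0.43 and Cry2 by -0.01 ± 0.17. Per1 measured 10.3, 22.6 and 12.4 CPM against 42.6, 13 and 2.81 CPM, and its CR libraries were more spread than the diets were apart. Nr1d1, which encodes the repressor REV-ERB alpha, had its highest group mean of the 4 times at 14 h in both diets, at 151 ± 42.6 CPM in AL and 206 ± 84.8 CPM in CR (SD, n = 3). Its relative Nr1d2 differed by -0.45 ± 0.50, Nfil3 by 0.71 ± 0.49 and Ciart by -0.84 ± 0.72.

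Of the clock's output genes, 0 of 20 were called (median -0.16). Dbp, a D-box activator, measured 77.2, 172 and 161 CPM under AL and 34.2, 72.7 and 35.7 CPM under CR, and Tef, its relative, 124, 151 and 128 CPM against 103, 103 and 73.2 CPM. Upp2, a uridine phosphorylase, measured 290, 462 and 771 CPM against 159, 229 and 218 CPM. In all 3 genes the groups did not overlap, while the differences of -1.53 ± 0.87, -0.53 ± 0.31 and -1.33 ± 0.50 did not pass the test. They were the 3 of the 20 that were lower without overlap, against 4.8% of all genes. Lonrf3 was the 1 member higher without overlap, against 4.87% of all genes.

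**Figure D4:**
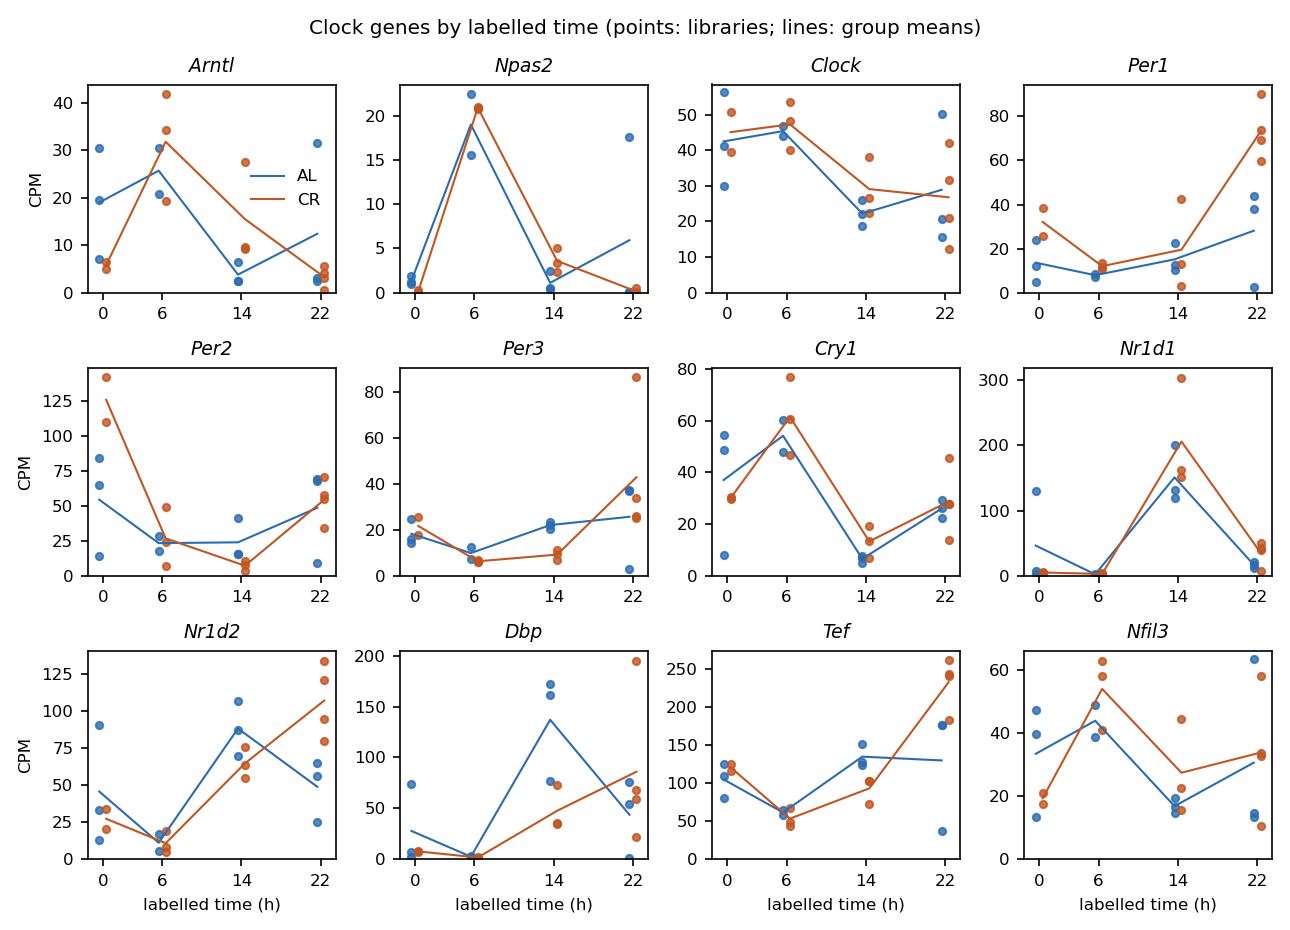
CPM of 12 clock and clock-output genes by labelled time in AL (blue) and CR (orange), with a point per library and lines through group means. At 14 h Arntl is higher and Per2, Per3, Dbp and Tef are lower in every CR library than in every AL library, while Nr1d1 overlaps.

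Genes of fat synthesis had 13 of 21 positive differences (median 0.25) and 0 called with all 6 libraries. Without CR library 3, 1 member, Scd2, passed the test on the higher side, where 0.53% of all genes did. In 4 of the 21, Acly, Acss2, Scd1 and Slc25a1, the CR libraries lay above all AL libraries, against 4.87% of all genes. These 4 make, carry or use acetyl-CoA and citrate or desaturate fatty acids. Acss2, acetyl-CoA synthetase, measured 241, 230 and 280 CPM against 525, 413 and 412 CPM (0.85 ± 0.43, adjusted p = 0.529), and Scd1 3922, 2506 and 2197 CPM against 5716, 4033 and 4438 CPM (0.72 ± 0.63, adjusted p = 0.750). Fasn, fatty acid synthase, overlapped at 524, 464 and 283 CPM against 485, 482 and 583 CPM, and Srebf1, the regulator of these genes, differed by 0.25 ± 0.38.

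Glycolysis and sugar entry had a median of 0.41 over 19 genes, and NRF2 targets, which supply antioxidant defence and NADPH, a median of 0.39 over 17, each with 3 members higher without overlap, against 4.87% of all genes, and 0 called with all 6 libraries. Among the latter, G6pdx, glucose-6-phosphate dehydrogenase, measured 3.27, 4.41 and 2.73 CPM against 7.34, 6.77 and 6.08 CPM, and Pgd, the next enzyme of the pathway, 30.6, 40.9 and 31.1 CPM against 51.5, 55.9 and 44.4 CPM. Targets of PPARA had 21 of 30 positive differences (median 0.25). Acot1, an acyl-CoA thioesterase, measured 10, 29.8 and 11.4 CPM against 64.7, 72.0 and 31.7 CPM (1.72 ± 0.68, adjusted p = 0.386), while Cpt1a, which admits fatty acids to mitochondria, differed by -0.10 ± 0.30, Plin2 by -0.02 ± 0.26 and Fgf21 by 1.17 ± 0.86. Cidec was under 1 CPM in all 6 libraries.

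Glucose-producing genes had a median of -0.04 over 17 genes, with Pck1 at 1009, 2597 and 938 CPM against 3222, 1196 and 477 CPM and G6pc differing by -0.37 ± 0.45. Pck1 was therefore more spread among the CR libraries than between the diets. Sqle, squalene epoxidase of cholesterol synthesis, also overlapped between the diets, at -0.14 ± 0.50. Cyp7a1, the rate-limiting enzyme of bile acid synthesis, measured 131, 117 and 203 CPM under AL and 27.2, 89.2 and 34.3 CPM under CR, and Nr0b2 (SHP), a receptor that represses it, 31.8, 20.9 and 23.4 CPM against 54.7, 57.2 and 94.9 CPM. Neither gene overlapped between the diets, and their differences of -1.58 ± 0.69 and 1.44 ± 0.47 had adjusted p of 0.45 and 0.3. The list of bile acid genes that holds both had a median of 0.03 over 22 genes. Without overlap, 1 of its members was higher and 2 were lower, against 4.87% and 4.8% of all genes.

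The lists of the growth hormone axis and of sex-biased genes, which hold no Mup gene, had 0 members called with all 6 libraries. Without CR library 3, 1 of 16 growth hormone genes, Lifr, and 2 of 27 sex-biased genes, Serpina1e and Selenbp2, passed as lower. Of all genes 0.516% did. The growth hormone list had 5 of 16 positive differences (median -0.25), with 1 member higher and 2 lower without overlap. The sex-biased list had 10 of 27 (median -0.14), with 1 higher and 4 lower. Of all genes, 4.87% were higher and 4.8% lower without overlap. Igf1 measured 691, 675 and 525 CPM under AL and 322, 373 and 742 CPM under CR, and its difference was -0.40 ± 0.27 with CR library 3 (adjusted p = 0.658) and -0.86 ± 0.27 without it (adjusted p = 0.0854). Cyp3a44, a female-biased P450 with close paralogs, measured 206, 136 and 183 CPM against 12.1, 17.6 and 34.9 CPM (-3.02 ± 0.85, adjusted p = 0.198), and Bcl6, a repressor that shapes male patterns, 15.6, 37.1 and 21.4 CPM against 7.47, 8.43 and 4.68 CPM (-1.85 ± 0.66, adjusted p = 0.330). Both were lower in all 3 CR libraries, whereas Stat5b and Cyp2d9 of these lists were higher in all 3. Igfbp1 ranged from 2.04 to 186 CPM and Lepr from 2.18 to 18.7 CPM over the 6 libraries, and Mt1, Cdkn1a, Hspa1a and Fkbp5 also overlapped between the diets.

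Pericentral genes, expressed around the central vein, had a median of -0.28 over 17 genes. The median was -0.14 without CR library 3, and 0.0 without both CR library 3 and AL library 2. Lower values without overlap were found in 7 of the 17, against 4.8% of all genes. Among these Oat, ornithine aminotransferase, measured 1649, 1164 and 1620 CPM against 571, 897 and 537 CPM, and Slc1a2, a glutamate carrier, 153, 168 and 136 CPM against 104, 91.8 and 72.6 CPM. None passed the test (adjusted p = 0.198 and 0.309), and periportal genes had a median of 0.11 with 0 of 15 without overlap. Dio1, which activates thyroid hormone, was chosen after its values were seen, at 118, 194 and 212 CPM against 13.5, 61.0 and 42.7 CPM (-2.16 ± 0.50, adjusted p = 0.114). Cytosolic ribosomal protein genes depended on the libraries kept, with a median of -0.03 over 30 genes with all libraries. Their median was -0.47 without CR library 3, -0.29 without AL library 2 and -0.72 without both. Fold changes of all genes correlated weakly with gene length (Spearman 0.162 over 13783 genes), and with each library's length trend removed the medians were 0.75 for endothelial markers, -0.78 for interferon genes and 0.12 for ribosomal protein genes.

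The diet difference at 14 h was next set against those at the other times by the test of the difference itself. It differed from that at 0 h in 15 genes (0.109% of those tested), from that at 22 h in 12 (0.087%) and from that at 6 h in 0 (0%), where 268 genes had an unadjusted p under 0.05 and DESeq2 called 5. For comparison, CR differed from AL in 66 genes at 0 h (0.479%), 0 at 6 h and 673 at 22 h (4.88%). With only the compared libraries fitted these were 16, 9 and 83, and without 4 libraries that resembled another diet 405, 77 and 2028. Group sizes also differ between the times, so these counts do not rank the diet difference by time. Without CR library 3 of 14 h the counts against 0 and 22 h were 76 and 13. With the replicate number as a block they were 80 and 4, and the 8 genes named below against 0 h and the 4 against 22 h were called there too. Deviations from the group mean correlated between CR libraries of 14 h and of 22 h with the same number at 0.491, 0.522 and 0.533, but between such AL libraries at -0.054 to -0.015. CR libraries of unlike number at these 2 times ran from -0.651 to 0.454.

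Slc25a25, a mitochondrial ATP-magnesium and phosphate carrier, differed in both comparisons. At 14 h it measured 143, 175 and 82.3 CPM under AL and 21.1, 42.6 and 53.4 CPM under CR, lower in every CR library. At 0 h CR was higher, with 339 ± 53.2 CPM (SD, n = 2) against 104 ± 32.8 (n = 3), and at 22 h again, with 373 ± 153 (n = 4) against 109 ± 9.22 (n = 3). The 14 h difference of -1.77 ± 0.42 was -3.47 log2 units from that at 0 h (adjusted p = 0.00977) and -3.54 from that at 22 h (adjusted p = 0.0036). It was not called against 0 h without CR library 2 of 0 h or CR library 1 of 14 h (adjusted p up to 0.0917), and was called against 22 h in all 13 fits that left out 1 library. AL stayed between 76.2 and 134 CPM in its 4 group means, whereas CR ran from 39.1 to 373 CPM. Without CR library 3 the 14 h difference itself passed the test (-2.07 ± 0.48, adjusted p = 0.0334).

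One RefSeq promoter of Slc25a25 is shown because it holds the cAMP response element TGACGTCA, a palindrome bound by CREB, in capitals. It lies before a start inside the gene on chr2:32424067-32424316, minus strand, GRCm38.p6, and is 1 of 3 RefSeq promoters of the gene.
Slc25a25: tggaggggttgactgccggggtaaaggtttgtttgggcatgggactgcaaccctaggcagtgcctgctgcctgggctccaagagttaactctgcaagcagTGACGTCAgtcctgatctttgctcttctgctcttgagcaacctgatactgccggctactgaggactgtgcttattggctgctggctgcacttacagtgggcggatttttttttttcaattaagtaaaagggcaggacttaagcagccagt
The match begins 150 bases before that start, and 1.55% of all promoters hold one within 250 bases.

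Tob1, an antiproliferative protein, had the same order in both comparisons. It measured 141, 180 and 145 CPM under AL and 96.4, 102 and 105 CPM under CR at 14 h, while CR averaged 212 ± 19.8 CPM at 0 h and 251 ± 73.0 CPM at 22 h. The 14 h difference of -0.61 ± 0.16 was -1.37 from that at 0 h (adjusted p = 0.0102) and -1.82 from that at 22 h (adjusted p = 6.2e-05). Against 0 h it was called in 8 of the 11 fits that left out 1 library, not without AL library 2 or CR library 2 of 0 h or CR library 1 of 14 h, and against 22 h in all 13. Klf10, a TGF-beta-inducible transcription factor, measured 14.0, 43.3 and 19.4 CPM against 10.8, 7.36 and 11.8 CPM at 14 h and averaged 32.1 ± 3.00 CPM in CR and 7.59 ± 1.58 in AL at 22 h. Its differences of -1.36 at 14 h and 2.08 at 22 h were -3.43 apart (adjusted p = 0.0161), a call lost without AL library 2 or CR library 2 of 14 h or AL library 3 of 22 h (adjusted p up to 0.0865).

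Nr0b2 and 8430408G22Rik moved the other way against 0 h. Nr0b2 averaged 1.89 ± 1.44 CPM in CR and 32.1 ± 8.92 in AL at 0 h, so that its difference turned from -4.13 at 0 h to 1.44 at 14 h, 5.57 ± 0.80 apart (adjusted p = 0.000548). 8430408G22Rik measured 33.4, 40.7 and 97.7 CPM under AL and 239, 132 and 210 CPM under CR at 14 h, and its difference turned from -6.11 to 1.76 (adjusted p = 0.000157). Grb7, a receptor adaptor protein, Btg1, an antiproliferative protein, and Erbb3, a growth factor receptor, were likewise called lower under CR at 0 h and not called at 14 h, with differences of -1.82, -1.38 and -2.35 at 0 h and of 0.48, 0.59 and 0.42 at 14 h. The difference between the times kept its call in all 11 fits that left out 1 library for 8430408G22Rik, Nr0b2 and Grb7, in 7 for Btg1 and in 5 for Erbb3 and Hspa1b. Hspa1b, an inducible HSP70 that nearly equals Hspa1a, averaged 429 ± 52.1 CPM in CR at 0 h and 3.73 ± 0.635 CPM at 14 h, against 17.5 ± 13.6 and 10.2 ± 10.9 CPM in AL. Rnf144b, a ubiquitin ligase, averaged 40.4 ± 4.56 CPM in CR and 32.6 ± 5.03 in AL at 14 h but 17.7 ± 1.14 and 47.5 ± 5.50 CPM at 22 h.

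**Figure D5:**
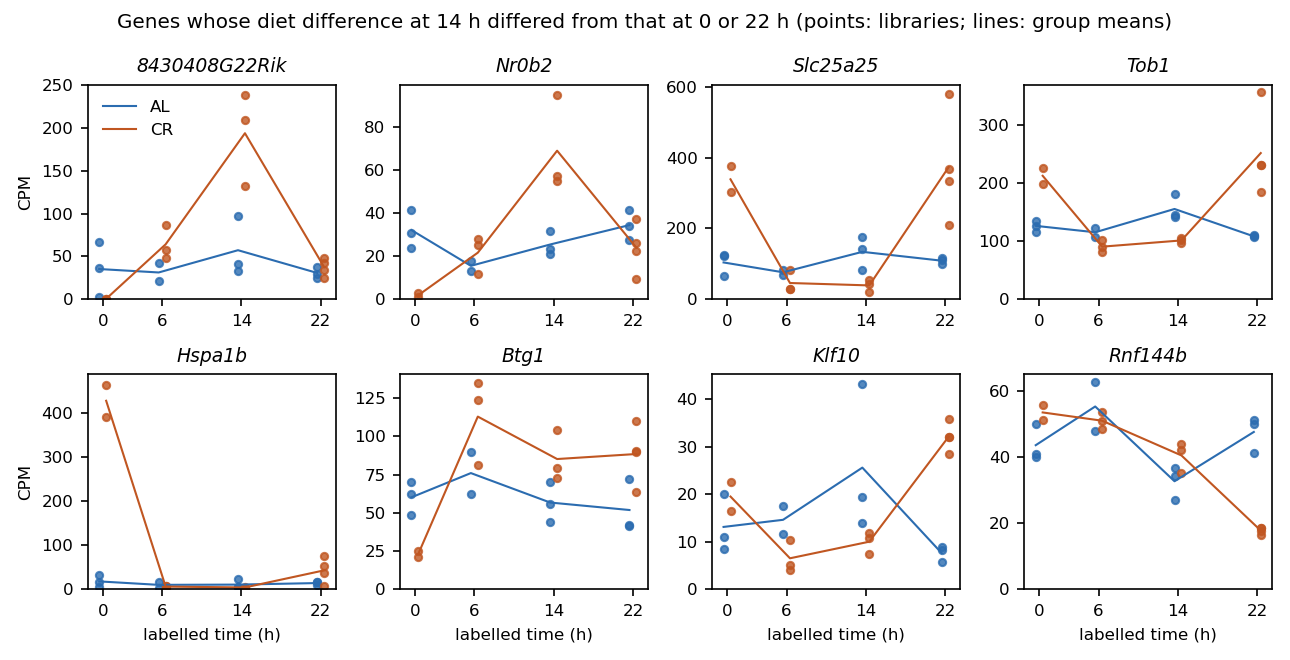
CPM of 8 genes by labelled time in AL (blue) and CR (orange), with a point per library and lines through group means. For Slc25a25, Tob1 and Klf10 the CR libraries lie below AL at 14 h and above AL at 22 h, and for Nr0b2 and 8430408G22Rik below AL at 0 h and above AL at 14 h.

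The fasted livers of 14 h give a second reference for the CR libraries, and the comparisons share those libraries. CR differed from the fasted group in 2354 genes (17.1%), 1255 higher and 1099 lower. Dlat stood at 55.4 ± 10.3 CPM (SD, n = 3) in the fasted livers, close to AL, and CR was higher by 0.68 ± 0.18 (adjusted p = 0.0083). Mup15 and Mup17 were lower in CR than in the fasted group by log2 differences of -12.45 and -11.67 (adjusted p = 7.93e-05 and 2.12e-05). Slc25a25 averaged 445 ± 188 CPM in the fasted livers, and the CR difference was -3.51 (adjusted p = 4.09e-06).

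Srebf1, Cpt1a and Plin2, which are known to respond to fasting, differed between the CR and the fasted livers while their CR and AL libraries overlapped. Srebf1 averaged 44.7 ± 11.5 CPM in the fasted group, against which CR was higher by 3.22 (adjusted p = 4.2e-06). Cpt1a averaged 1012 ± 60.3 CPM in the fasted group and the CR difference was -1.95 (adjusted p = 6.52e-05), and Plin2 averaged 1119 ± 461 CPM and the CR difference was -2.0 (adjusted p = 7.55e-06). Cyp4a14 averaged 8855 ± 736 CPM in the fasted livers, above all CR and AL libraries. Nr0b2, whose CR and AL libraries did not overlap, averaged 11.5 ± 7.22 CPM in the fasted livers, below all of them. Among the endothelial markers, Kdr averaged 41.1 ± 7.96 CPM and Gpr182 18.5 ± 4.85 CPM in the fasted group, with differences of CR from it of -0.05 and 0.53 that did not pass the test (adjusted p = 0.932 and 0.0673).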

How the data were processed

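Poly(A) RNA of 30 mg of female mouse liver was sequenced as 150-bp pairs. Per the labels' protocols, the authors mapped reads to mouse protein-coding genes of GRCm38 with Bowtie, allowing 2 mismatches, and estimated gene-level expected counts and TPM with RSEM 1.2.3. The deposited signal table holds TPM that the authors rescaled with EBSeq against batch effects, per the labels' protocols.

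Expected counts were rounded, filtered with edgeR's filterByExpr and normalized by TMM. All 38 libraries entered 1 quasi-likelihood fit with a term per group (edgeR 4.0.16, R 4.3.3, common dispersion 0.0785), and contrasts were adjusted by Benjamini-Hochberg over all genes tested at a threshold of 0.05. Levels are CPM. Total counts limit the precision of low genes, and p-values measure only the spread between these samples, which may be technical. The script was tested on simulated data. Promoters are RefSeq's for GRCm38.p6.

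The members and lists were chosen with earlier results of these data known. A few genes that the rules name are not reported here. Named genes were the 12 largest called differences in each direction with at least 5 CPM in 1 group and no overlap, leaving out Mup genes and unnamed models, called list members, a set of anchors, and up to 8 called genes with at least 10 CPM for each difference between times. With all libraries the first rule named only Dlat, and Mup15 and Mup17 are given outside it. It was applied again without CR library 3, a choice made after seeing the data.

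Alternatives were DESeq2 1.42.0 (its test, and its size factors), no filter on low counts, limma 3.58.1 on log2 of the rescaled TPM with a pseudocount of 1 or 0.1 and a minimum mean of 1 or none, a fit of only the compared libraries, removal of length trends, a replicate block, and leaving out libraries. Deviations of CR and AL libraries of 14 h with the same number correlated at -0.169, 0.083 and 0.106, so the numbers do not pair these. Between times, CR libraries with the same number correlated at 0.243, 0.425 and 0.771 with 6 h. With 0 h they stood at 0.058 and 0.334. AL libraries ran from -0.118 to -0.046 with 0 h and stood at -0.026 and -0.31 with 6 h. CR libraries of unlike number ran from -0.669 to 0.545 with 6 h, so the numbers are not shown to link libraries. Block values stand beside the differences between times as an alternative.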

Additional observations from a re-analysis of the deposited data

Results flagged for a closer look

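The diet difference at 14 h differed from that at another time, by the test of the difference itself in edgeR, for the following genes. Against 0 h the log2 differences were 7.86 for 8430408G22Rik, 5.57 for Nr0b2, 2.31 for Grb7, 1.97 for Btg1 and 2.77 for Erbb3, and -3.47 for Slc25a25, -1.37 for Tob1 and -6.06 for Hspa1b.

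Against 22 h they were -1.82 for Tob1, 1.73 for Rnf144b, -3.54 for Slc25a25 and -3.43 for Klf10. Further differences against 22 h were 1.89 for Alg2, a mannosyltransferase of the endoplasmic reticulum, -2.34 for Slc25a34, a mitochondrial carrier, and 1.2 for Gata4, a transcription factor. Alg2 averaged 13.4 ± 2.31 CPM in AL and 20.5 ± 6.49 CPM in CR at 14 h, and 18.7 ± 5.02 and 7.67 ± 2.16 CPM at 22 h. Gata4 averaged 12.4 ± 3.33 and 18.6 ± 1.25 CPM at 14 h, and 19.5 ± 1.30 and 12.8 ± 1.29 CPM at 22 h (SD, n = 3 in each group except n = 4 in CR at 22 h). Leaving out 1 library at a time, the call held in 4 of 13 fits for Alg2 and Gata4, and in 6 for Slc25a34, and Gata4 was not called without CR library 3 of 14 h. With the replicate number as a block the adjusted p of the 3 genes was 0.0829, 0.0812 and 0.0829 for Alg2, Gata4 and Slc25a34.

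In 3 of these genes 1 library of the 4 CR libraries at 22 h stood apart by Dixon's criterion, which flags about 1 group in 20 by chance. Library 3 had 10.9 CPM for Alg2, library 4 had 18.2 CPM for Slc25a34 and library 1 had 10.9 CPM for Gata4.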

How the results depend on the processing

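The 3 genes called between CR and AL at 14 h became 68 with the DESeq2 test, 14 with a replicate block (all 3 among them; the numbers do not pair AL with CR libraries), 6 with limma without a minimum, 5 with length trends removed and 1, none of the 3, with only the compared libraries fitted. Leaving out 1 library gave 0 to 144 genes, with 37 without AL library 2, 144 without CR library 3 and 0 without any of the other 4. Alternatives chosen after seeing the data gave 7 genes without AL library 2 of 0 h and of 22 h, 590 without 4 libraries that resembled another diet, 881 without AL library 2 and CR library 3, and 679 without the first 6 of these. Across 19 alternatives the log2 difference ran from 0.87 to 1.16 for Dlat, -11.09 to -7.87 for Mup15 and -8.63 to -6.36 for Mup17, and the call was lost in 6, 5 and 5. No named gene reversed.

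The 15 genes whose diet difference at 14 h differed from 0 h became 89 with DESeq2, 80 with the replicate block, 24 with limma without a minimum, 1 with only the compared libraries, and 34, 362, 276 and 208 in the fits added later. Leaving out 1 library gave 3 to 80, with 80 without AL library 3 of 0 h, 76 and 32 without CR library 3 and AL library 2 of 14 h, 5 without AL library 2 or CR library 1 of 0 h or AL library 1 of 14 h, and 3 without CR library 2 of 0 h or CR library 1 of 14 h. The 12 genes against 22 h became 112 with DESeq2, 4 with the block (Alg2, Slc25a34 and Gata4 lost), 7 with limma at each setting, 3 with only the compared libraries, 30 with length trends removed, and 24, 66, 40 and 67 in the fits added later. Leaving out 1 library gave 3 to 74, with 74 without CR library 3 and 20 without AL library 2 of 22 h, 3 without AL library 3 of 22 h or CR library 2 of 14 h, 4 without CR library 4 and 7 without CR library 2 of 22 h, and 5 without AL library 1 or 3 of 14 h. Against 6 h the 0 genes became 5 with DESeq2 and 1 with limma without a minimum, with 268 at an unadjusted p under 0.05. The 2354 genes between CR and fasted livers became 1357 with only the compared libraries, and 1282 to 2241 with 1 library left out, the fewest without fasted library 1. The cause of these changes was not tested.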
